A study of Mus musculus with 6 samples.

Results

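The 36 genes described here encode proteins of the complement system and of blood coagulation and its dissolution, together with receptors and inhibitors of both. They were chosen by gene symbol on Illumina Mouse WG-6 v2 arrays that profiled tibialis anterior, a muscle at the front of the shin made mostly of fast fibres, from male mice aged 3 months. Of the 36 genes, 34 had at least 1 annotated probe and 23 were measured, which means a detection p-value under 0.05 (a signal above the array's negative controls) on at least 3 of the 6 arrays. The whole data set held 9978 such genes. One group of 3 arrays carried the genotype label PGC1b transgenic (TG) and the other 3 the label wild type (WT). The promoter that drives the transgene, the strain, and whether each array is a separate animal are not given in the sources used here, so the p-values below reflect array-to-array spread, part of which may be technical.

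Complement is a cascade of plasma and cell-surface proteins. In its classical pathway C1q binds antibody or damaged cells and switches on the proteases C1r and C1s, which cleave C4 and C2, and these then cleave C3, the step shared with the alternative pathway of factor B and properdin. Coagulation forms fibrin through thrombin, and plasminogen activators dissolve it. The liver makes most of these proteins for the blood, while C1q comes largely from macrophages, and fibroblasts, endothelial cells and platelets make or carry others.

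Values without a scale are unnormalized probe intensities, differences are TG minus WT on normalized log2 signals, and "rose" or "fell" means an adjusted p under 0.05 in limma over all 9978 genes. The arrays labelled TG had 17525 to 17604 probes above background and those labelled WT 15338 to 15691. All 8 skeletal muscle markers were measured in both groups, and 6 of 8 hepatocyte markers with a probe, Alb among them, were above background on no array. Ppargc1b, the gene that the label names, checks the labels. Its intensities were 281.3, 373.4 and 309.8 on arrays labelled TG and 497.2, 648.7 and 708.9 on arrays labelled WT, a log2 difference of -1.32 (SE 0.21, limma adjusted p = 0.000734; exact two-sided permutation p = 0.1, the smallest that 3 against 3 allow). The signal thus ran against the label, whether the probe can see the transgene is not known here, and every direction below rests on the labels alone.

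Of 11 measured complement components 10 rose on the arrays labelled TG, C7 being the exception. Of 3 measured complement regulators 1 rose and 1 fell, and of 9 measured genes of coagulation and fibrinolysis 7 rose and 0 fell. Among those that rose, C6, F8 and Plaur were above background on no WT array, so they entered only through the arrays on which they were high. Over all 9978 genes tested 28.1% rose and 28.2% fell. Among the 17 members above background on all 6 arrays, 13 rose and 1 fell, where 25.1% of the 8163 genes of that kind rose and 32% fell. In all 13 the 3 TG values lay above the 3 WT values, which held for 28.9% of such genes, and 11 of the 13 rose by at least 2-fold, against 8.22% of such genes. The median difference of the 17 was 1.13, against -0.09 over the 8163 genes. The members were chosen with earlier results of these data known, so these shares describe the list and are no test of it. Of 22 other measured genes of the same pathways, 8 rose and 5 fell, with a median difference of 0.05. Within the 17, all 7 complement components rose (median 2.38), and 5 of 7 genes of coagulation, its control and fibrinolysis rose (median 0.92). The 6 other measured members include C6, F8 and Plaur, which entered only through the arrays labelled TG. Of the rest, Cfb was above background on 1 WT array, and C1s1 and C7 on 2, so they too needed arrays labelled TG to be measured. With these 6 included, 18 of 23 measured members rose and 1 fell.

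**Figure D1:**
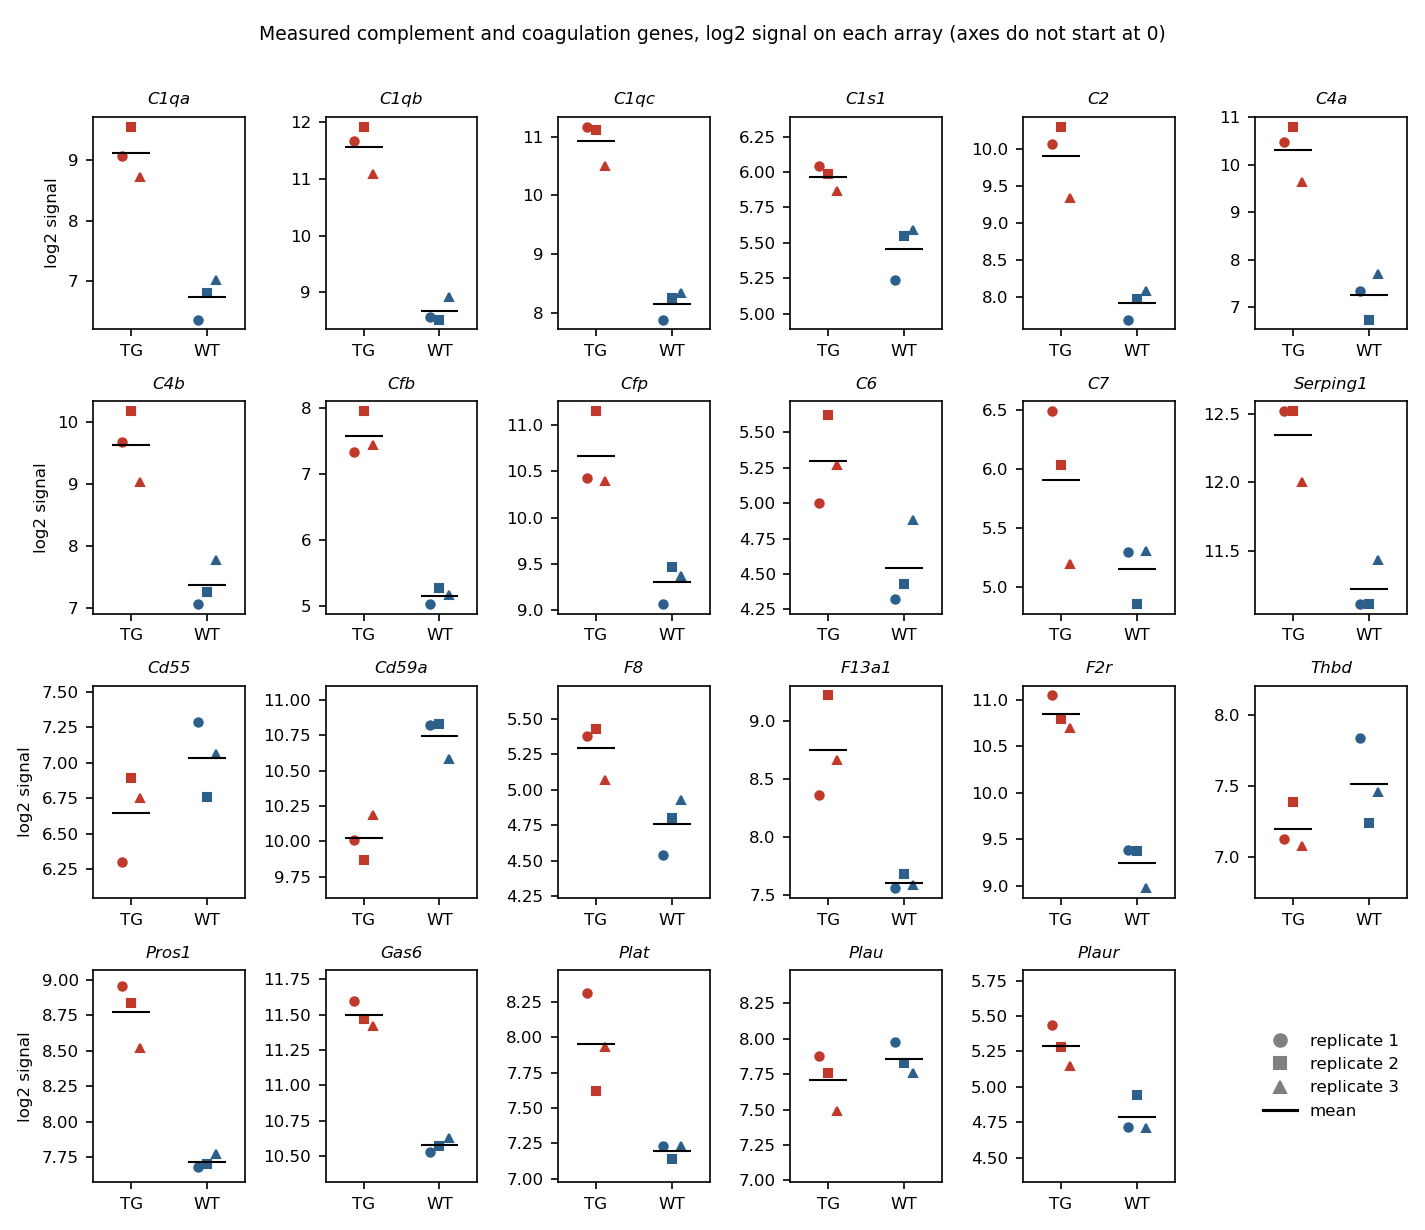
Normalized log2 signal of the 23 measured genes on each array, with arrays labelled TG on the left (red) and arrays labelled WT on the right (blue) of each panel, a symbol for each replicate number and a line at the group mean. All 3 TG values lie above all 3 WT values in 18 panels and below them in 1, Cd59a, beside 31.5% and 32.3% of all genes tested. The 18 include C6, F8 and Plaur, which were above background on no WT array. Replicate 3 is the lowest TG array in 17 panels, and for 3390 of the 9978 genes tested.

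The genes of the 3 chains of C1q, the molecule that starts the classical pathway, rose together. C1qb had 3613.0, 4076.2 and 2105.9 on arrays labelled TG, against 411.6, 382.6 and 489.4 on arrays labelled WT. C1qc had 2582.6, 2360.8 and 1424.8 on arrays labelled TG, against 270.7, 324.0 and 336.4 on arrays labelled WT. C1qa had 677.8, 877.2 and 461.5 on arrays labelled TG, against 126.7, 147.8 and 163.7 on arrays labelled WT. All TG values lay above all WT values for each of the 3 chains, as for 28.9% of genes above background on all arrays. TG replicate 3 was the lowest array labelled TG each time, as for 48.2% of all genes that rose. The log2 difference was 2.88 for C1qb (SE 0.21, limma adjusted p = 1.23e-05), 2.77 for C1qc (SE 0.20, adjusted p = 1.11e-05) and 2.38 for C1qa (SE 0.23, adjusted p = 5.29e-05), so the 95% confidence intervals of the 3 chains overlapped. In these bulk samples, more cells of a type and more RNA per cell cannot be told apart.

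The start regions of C1qb and C1qc are printed because both genes lie side by side on chromosome 4 and moved together, and that of Cd59a because it was the member that fell. They come from RefSeq, build GRCm38.p6, which matched 26 of the 36 genes and held none for C1qa. C1qb is at chr4:136886151-136886450, C1qc at chr4:136892865-136893164, both on the minus strand, and Cd59a at chr2:104095551-104095850 on the plus strand, each with 250 bases before and 50 from the start of the gene. Capitals mark matches, on either strand, to GAGGAA (a core bound by PU.1, a factor of macrophages), TTCNNNGAA (bound by STAT factors) and the core of the interferon-stimulated response element, 2 copies of GAAA with any 2 bases between them (bound by interferon regulatory factors).
C1qb: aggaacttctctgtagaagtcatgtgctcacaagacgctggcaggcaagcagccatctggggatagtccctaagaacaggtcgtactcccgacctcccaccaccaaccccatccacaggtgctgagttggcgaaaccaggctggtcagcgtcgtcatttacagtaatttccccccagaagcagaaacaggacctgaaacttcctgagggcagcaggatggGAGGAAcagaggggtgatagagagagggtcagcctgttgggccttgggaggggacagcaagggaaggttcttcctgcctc
C1qc: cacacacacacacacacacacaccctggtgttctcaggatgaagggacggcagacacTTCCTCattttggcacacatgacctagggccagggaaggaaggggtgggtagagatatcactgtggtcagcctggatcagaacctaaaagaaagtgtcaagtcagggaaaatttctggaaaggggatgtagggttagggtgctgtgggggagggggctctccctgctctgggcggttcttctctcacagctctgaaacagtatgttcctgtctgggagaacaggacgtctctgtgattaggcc
Cd59a: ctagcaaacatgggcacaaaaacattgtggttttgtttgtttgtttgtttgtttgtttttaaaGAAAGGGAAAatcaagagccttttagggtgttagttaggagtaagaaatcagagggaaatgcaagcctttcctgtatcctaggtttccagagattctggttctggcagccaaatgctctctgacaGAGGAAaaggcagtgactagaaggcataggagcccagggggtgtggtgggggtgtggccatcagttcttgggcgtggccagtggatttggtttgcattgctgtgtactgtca

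GAGGAA occurred once in each of these regions, 30 bases before the start in C1qb (position -30), at -193 in C1qc on the opposite strand, and at -62 in Cd59a. It is a common motif: 28.3% of the 32851 promoters of the table held it, against 8.3% for TTCNNNGAA and 3.44% for the response element core. Among 12 called members with a promoter, 6 held GAGGAA, 1 held TTCNNNGAA (Pros1) and 1 held the response element core (Cd59a). Cd59a, which fell, held GAGGAA as the C1q genes did. The counts are a description of letters and show no binding.

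The genes C4a, C4b and C2 rose as well. C4a had the largest difference of the measured members: 1649.8, 1921.8 and 823.5 on arrays labelled TG, against 199.0, 143.0 and 231.3 on arrays labelled WT, a log2 difference of 3.05 (SE 0.32, limma adjusted p = 7.43e-05). A second C4a probe above background on all arrays had a difference of 2.62. C4b had 996.6, 1297.6 and 559.9 on arrays labelled TG, against 173.7, 185.1 and 242.5 on arrays labelled WT, a difference of 2.26 (SE 0.28, adjusted p = 0.000215). A dimmer C4b probe, above background on 1 WT array, had a difference of 0.46 (limma adjusted p = 0.13 over all probes kept), so the C4b probes disagree in size. C4a and C4b are near-identical copies, and RefSeq's C57BL/6J annotation lists C4a as a transcribed pseudogene, so their signals may be shared between the copies. C2, the protease of the classical C3 convertase, had 1269.6, 1407.7 and 679.9 on arrays labelled TG, against 242.7, 275.3 and 290.1 on arrays labelled WT, a difference of 2.0 (SE 0.23, adjusted p = 0.000146). No TG value of C4a, C4b or C2 reached down to a WT value, as for 28.9% of genes above background on all arrays. TG replicate 3 was again the lowest array labelled TG, as for 48.2% of all genes that rose.

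The C1 proteases were near background. C1s, listed on the array as C1s1, had 135.9, 130.7 and 112.1 on arrays labelled TG, against 88.0, 93.6 and 95.5 on arrays labelled WT, of which 2 were above background. Its difference was 0.51 (SE 0.13, limma adjusted p = 0.00895), and a second C1s1 probe had 0.31 (limma adjusted p = 0.206 over all probes kept). C1ra, the gene of C1r, had 2 probes, both above background on no array. Of the 8 genes grouped here under the classical pathway, C4a among them, 7 were measured and all 7 rose, beside 28.1% of all genes tested. Their median difference was 2.38.

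Of the alternative pathway, factor B and properdin rose. Cfb, the gene of factor B, whose protease part makes the alternative C3 convertase, had 250.6, 337.4 and 224.1 on arrays labelled TG, against 83.3, 87.2 and 86.1 on arrays labelled WT, of which 1 was above background. Its difference was 2.41 (SE 0.17, limma adjusted p = 9.77e-06), and it moved to 1.46 with no background correction. It was 3.18 in the authors' value table, where values under 1.1 were set to 1.1 here before log2. Cfp, the gene of properdin, which stabilizes that convertase, had 1606.2, 2400.9 and 1340.6 on arrays labelled TG, against 569.9, 704.3 and 657.0 on arrays labelled WT, a difference of 1.36 (SE 0.21, adjusted p = 0.000696). Both genes were highest on TG replicate 2. C3 and Cfd, the gene of factor D (adipsin), had 0 probes by name in the annotation used and were not analysed here.

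The terminal components C6 and C7, which help to assemble the membrane attack complex, were dim. C6 had 89.9, 112.3 and 90.6 on arrays labelled TG, against 55.2, 63.5 and 79.6 on arrays labelled WT, none of which was above background, so it was at least 1.04-fold higher (limma adjusted p = 0.00997). The other C6 probe was above background on no array. C7 had 166.2, 133.3 and 88.5 on arrays labelled TG, against 89.4, 78.6 and 89.1 on arrays labelled WT. The C7 groups overlapped through TG replicate 3, and the difference of 0.75 (SE 0.29, adjusted p = 0.0558) missed the threshold. Without that array it was 1.10 and past it (adjusted p = 0.00252), and without TG replicate 1 it was 0.46 (adjusted p = 0.179). It did not pass without any of the other 4 arrays either, with differences of 0.60 to 0.83, and a dimmer C7 probe had a difference of 0.17. The receptors of the fragments that the cascade releases, C3ar1 and C5ar1, had 1 probe each, above background on no array, so no difference was detectable for them.

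**Figure D2:**
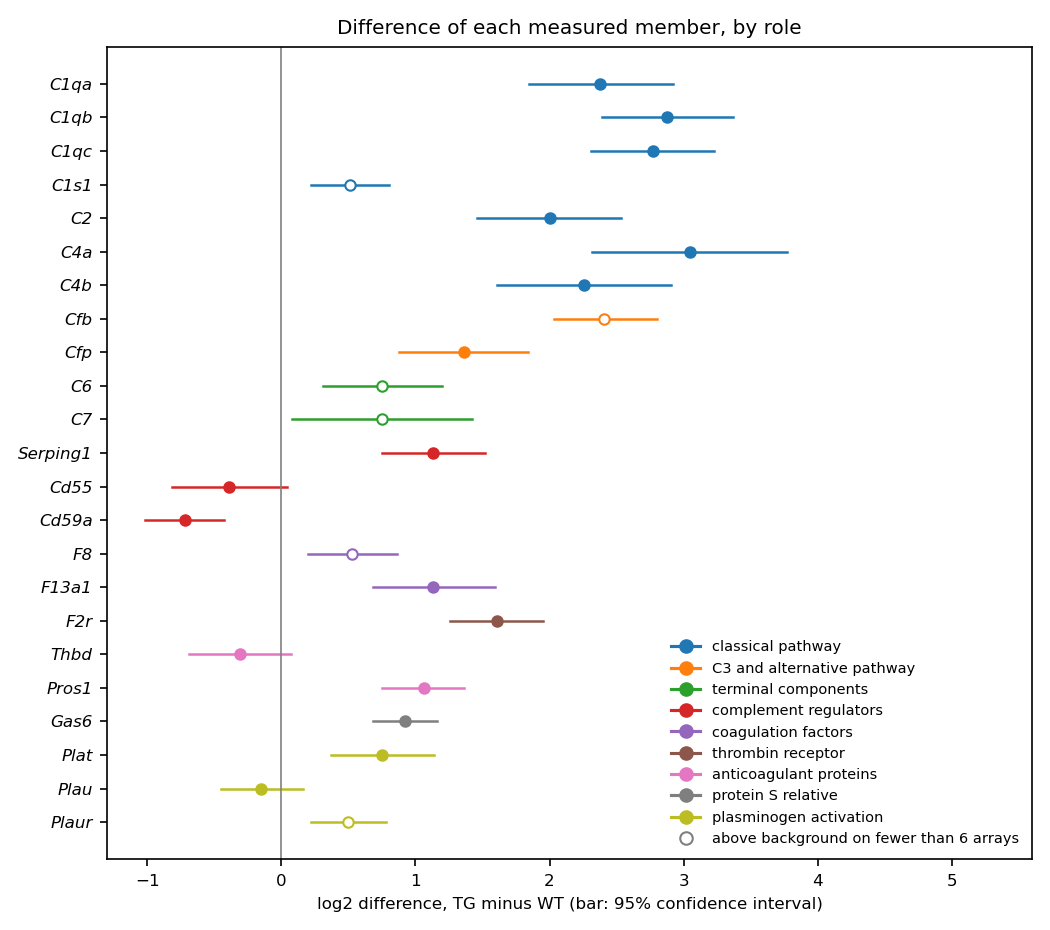
Log2 difference, TG minus WT, of the 23 measured genes with 95% confidence intervals, coloured by role; open points were above background on fewer than 6 arrays. The 11 complement components lie between 0.51 and 3.05. Of the 3 complement regulators, Serping1 lies above 0 and Cd59a below it, and the interval of Cd55 includes 0.

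Of 3 measured complement regulators 1 rose, 1 fell and 1 did not pass, where 28.1% of all genes tested rose and 28.2% fell. Serping1, the gene of the C1 inhibitor, a plasma protein that blocks the C1 proteases, had 6290.2, 6121.1 and 3975.2 on arrays labelled TG, against 2291.6, 2176.9 and 2675.6 on arrays labelled WT, a difference of 1.13 (SE 0.17, limma adjusted p = 0.000574). Its second probe had 1.01. Cd59a, the membrane protein that blocks the membrane attack complex, had 1228.3, 1061.3 and 1176.1 on arrays labelled TG, against 1858.9, 1800.3 and 1492.3 on arrays labelled WT. It was the 1 member that fell, by 0.72 on the log2 scale (SE 0.13, adjusted p = 0.00148), with no overlap between the groups, as in 36.9% of genes above background on all arrays. Cd55, decay-accelerating factor of the cell surface, had 153.1, 195.0 and 160.7 on arrays labelled TG, against 193.9, 144.5 and 166.6 on arrays labelled WT. The groups overlapped and the difference was -0.39 (95% interval -0.82 to 0.04, adjusted p = 0.105). Cfi, the protease factor I, and Cd46, another regulator of the cell surface, were above background on no array.

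Among clotting factors, F13a1 and F8 were measured and both rose, F8 only as a bound. F13a1, the factor XIII subunit that cross-links fibrin and is also made by macrophages and platelets, had 445.4, 705.0 and 442.3 on arrays labelled TG, against 225.3, 231.9 and 219.0 on arrays labelled WT, a difference of 1.13 (SE 0.20, limma adjusted p = 0.00138). F8, the cofactor factor VIII, had 103.6, 104.3 and 84.5 on arrays labelled TG, against 68.9, 77.3 and 80.9 on arrays labelled WT, none of which was above background. It was at least 1.04-fold higher (adjusted p = 0.014), and it no longer passed without TG replicate 2 (adjusted p = 0.0513) or in the authors' value table (adjusted p = 0.0966). This rests on 1 of 4 F8 probes, and the others were above background on no array. Tissue factor F3 and factor V (F5) were above background on no array. F7 and F10 were above background on 2 arrays labelled TG and on 0 arrays labelled WT, with 92.8, 103.5 and 80.0 for F7 on arrays labelled TG, against 75.9, 75.8 and 79.7 on arrays labelled WT, and they did not enter the test.

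F2r, the thrombin receptor PAR1, had the largest difference among the 9 measured members outside complement. It had 2373.8, 1910.9 and 1637.8 on arrays labelled TG, against 691.3, 661.9 and 504.1 on arrays labelled WT. The lowest TG array lay well above the highest WT array, and the difference was 1.61 (SE 0.15, limma adjusted p = 4.49e-05).

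Of the anticoagulant genes Pros1 rose, Thbd did not pass, and Gas6, a relative of protein S, rose. Pros1, the gene of protein S, a cofactor of activated protein C, had 635.2, 559.7 and 410.0 on arrays labelled TG, against 241.7, 234.7 and 241.9 on arrays labelled WT, a difference of 1.06 (SE 0.13, limma adjusted p = 0.000222). Gas6, ligand of the receptor Axl, had 3450.5, 3023.9 and 2700.5 on arrays labelled TG, against 1510.2, 1490.5 and 1534.4 on arrays labelled WT, a difference of 0.92 (SE 0.11, adjusted p = 0.000127). Thbd, thrombomodulin of the endothelial surface, had 227.6, 250.3 and 188.0 on arrays labelled TG, against 263.2, 182.2 and 204.9 on arrays labelled WT. Its groups overlapped and its difference was -0.31 (95% interval -0.69 to 0.07, adjusted p = 0.147). Tfpi, the inhibitor of the tissue factor pathway, was above background on no array, and Procr, the protein C receptor, on 2 labelled TG, too few to be tested.

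Of the genes of plasminogen activation, Plat rose and Plau did not pass. Plat, the tissue activator, had 433.2, 281.9 and 292.3 on arrays labelled TG, against 188.5, 173.0 and 181.2 on arrays labelled WT, a difference of 0.75 (SE 0.17, limma adjusted p = 0.00494). Plau, urokinase, had 339.1, 305.1 and 231.5 on arrays labelled TG, against 286.2, 251.9 and 241.1 on arrays labelled WT, with overlap and a difference of -0.15 (95% interval -0.45 to 0.16, adjusted p = 0.373). Plaur, the urokinase receptor, had 106.2, 98.6 and 86.8 on arrays labelled TG, against 75.2, 80.5 and 75.2 on arrays labelled WT, none of which was above background. It was at least 1.04-fold higher (adjusted p = 0.00852).

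Several complement genes are neighbours, and the genes that stand among them in RefSeq order give a local comparison. On chromosome 17, C4b, C4a, Cfb and C2 rose by 2.26, 3.05, 2.41 and 2.0. The signals of C4a and C4b may be shared between the copies. Cfb was above background on 1 WT array, and its difference ranged from 1.46 to 3.18 under the alternatives. The 4 genes between C4a and Cfb, Stk19, Dxo, Skiv2l and Nelfe, were above background on all arrays and had differences of 0.15, 0.072, 0.013 and 0.095, with limma adjusted p from 0.412 to 0.931. Beyond the cluster, Tnxb had 0.11 (adjusted p = 0.594), Ehmt2 had -0.30 (adjusted p = 0.0707) and Atf6b rose by 0.49 (adjusted p = 0.0115). On chromosome 4, Epha8, the only neighbour of the C1q genes compared here that was tested, had -0.47 (adjusted p = 0.0686). It was near background, above it on 1 array labelled TG and 2 labelled WT, so it gives little local comparison. On chromosome 15, Oxct1, near C6 and C7, rose by 0.49 (adjusted p = 0.012) and Rpl37 had -0.042 (adjusted p = 0.766).

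**Figure D3:**
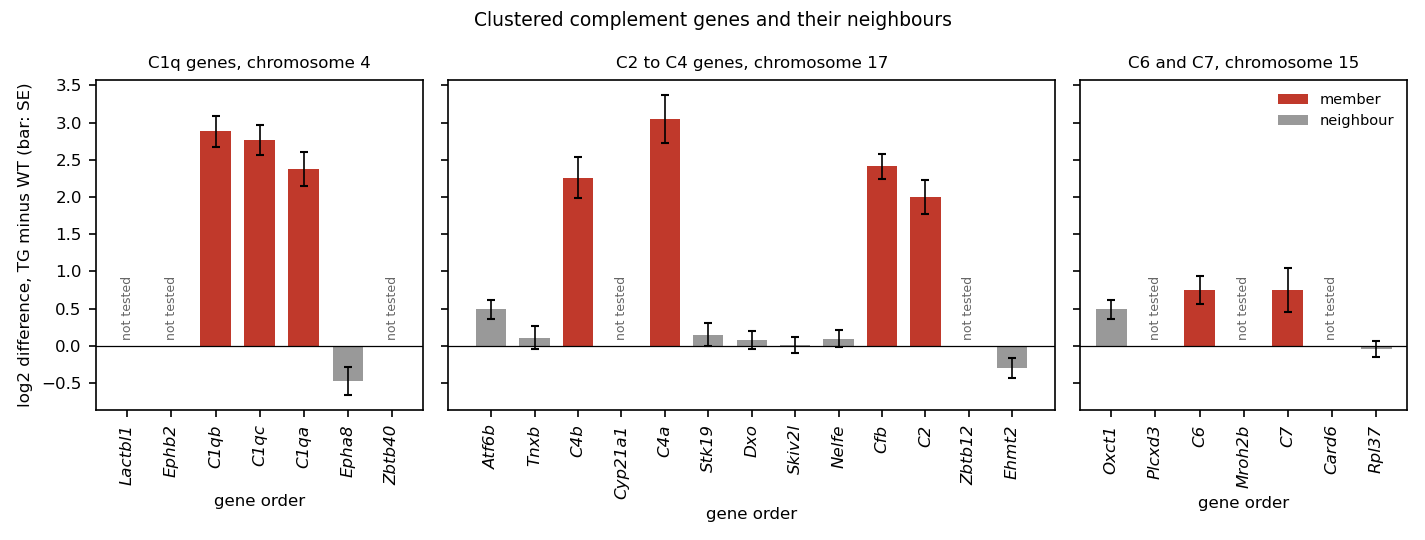
Log2 difference, TG minus WT, with its SE for clustered complement genes (red) and neighbouring genes (grey), placed by gene order and not by distance; genes without a measured probe are marked as not tested. The chromosome 17 members stand at 2.0 to 3.05, while the 4 genes between C4a and Cfb lie at 0.013 to 0.15. Cfb was above background on 1 WT array, and Epha8 on 1 array labelled TG and 2 labelled WT.

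Other genes of the same pathways, from a list of 63, went both ways: of 22 measured, 8 rose, 5 fell and 9 did not pass, beside 28.1% and 28.2% over all genes tested. The median difference was 0.05. Kng1, which encodes kininogen of the contact system, was above background on no WT array and was at least 2.96-fold higher (limma adjusted p = 0.000176). Anxa2, a surface receptor for plasminogen and its activator, rose by 1.42 (adjusted p = 4.37e-05), and its partner S100a10 by 0.64 (adjusted p = 0.02). Masp1, a protease of the lectin pathway, rose by 1.19 (adjusted p = 0.000264), Axl, the Gas6 receptor, by 0.97 (adjusted p = 0.000115), Vkorc1, the vitamin K reductase that supports clotting factor synthesis, by 0.78 (adjusted p = 0.00193), and the endothelial and myeloid surface gene Cd93 by 0.73 (adjusted p = 0.00185). Cd59b, the copy of Cd59a, fell by 1.42 (adjusted p = 2.05e-05), with 254.8, 251.0 and 208.7 on arrays labelled TG, against 491.7, 483.0 and 398.9 on arrays labelled WT. F2rl3, the thrombin receptor PAR4, fell by 0.91 (adjusted p = 0.000569), and Vwf, von Willebrand factor of endothelium and platelets, by 0.90 (adjusted p = 0.000123).

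Markers of other cell types moved in the same arrays. Their counts are to be read beside the 28.1% of all genes tested that rose and the 28.2% that fell. Of 8 measured macrophage markers 7 rose, with a median difference of 2.21, and 1, Cd163, was at -0.75 (limma adjusted p = 0.0526). Their summed intensity was 14941.3, 16820.3 and 9314.9 on arrays labelled TG, against 2678.4, 2587.2 and 2510.8 on arrays labelled WT, with Laptm5 the brightest (difference 2.44). The macrophage sum was lowest on TG replicate 3 among arrays labelled TG. On normalized signals so were 14 of the 18 members that rose, where 48.2% of all genes that rose had this array lowest. The sums are unnormalized, and among arrays labelled TG every marker list but the neutrophil one had its lowest sum there. These included the endothelial (5884.6) and skeletal muscle (143624.6) sums. That array also had a median intensity of 73.3, against 78.8 and 78.3 on the other arrays labelled TG. Of 8 fibroblast markers 7 rose (median 1.13; the brightest, Dcn, had 0.13), with sums of 24758.6, 23548.6 and 19908.1 on arrays labelled TG, against 14724.8, 13322.1 and 13522.3 on arrays labelled WT. Of 8 endothelial markers 0 rose and 1 fell (median -0.14; brightest Egfl7, -0.11), and their sums, 5884.6 to 8171.1 on arrays labelled TG and 6210.3 to 7029.3 on arrays labelled WT, overlapped.

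Of 4 measured neutrophil markers 3 rose (median 1.62; brightest S100a8, 3.54), where 28.1% of all genes tested rose and 28.2% fell. Among arrays labelled TG, all 4 were highest on replicate 2. The sum of the neutrophil markers was 1137.2, 9502.1 and 1375.5 on arrays labelled TG, against 764.2, 578.8 and 570.4 on arrays labelled WT, and S100a8 alone gave 524.4, 5390.8 and 729.1 on arrays labelled TG. Replicate 2 was the highest array labelled TG for 13 of the 23 measured members, where 29.6% of all genes tested had it highest. Among arrays labelled TG, the macrophage sum was highest there too, as were the platelet, mast cell, lymphocyte and skeletal muscle sums. So was the adipocyte sum, at 1859.2, 2921.6 and 1360.1 on arrays labelled TG, against 923.1, 953.4 and 892.2 on arrays labelled WT. The fibroblast, endothelial and hepatocyte sums were highest on TG replicate 1 instead. Without TG replicate 2, 17 members rose, and without TG replicate 3, 19 did. Adipocyte markers rose in 3 of 5 (Adipoq by 1.71), mast cell markers in 4 of 5 (Mcpt4 by 0.80), lymphocyte markers in 3 of 5 (Cd2, Cd3g and Nkg7, the brightest, all above background on no WT array and so tested only through the arrays labelled TG), and of 2 platelet markers measured Pf4 rose by 0.65 (adjusted p = 0.0358). Of 8 skeletal muscle markers 3 fell and 0 rose (median -0.14; brightest Pvalb, -0.12), and Myh4 fell by 3.91 on the log2 scale. Their summed intensity was 143624.6 to 151272.1 on arrays labelled TG, against 190695.4 to 198720.1 on arrays labelled WT. These sums are unnormalized and include Myh4, at 597.2 to 1438.2 on arrays labelled TG and 13289.0 to 16360.4 on arrays labelled WT. On normalized signals 5 of the 8 muscle markers did not pass. The part of these cell types in the differences of the complement and coagulation genes was not tested.

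**Figure D4:**
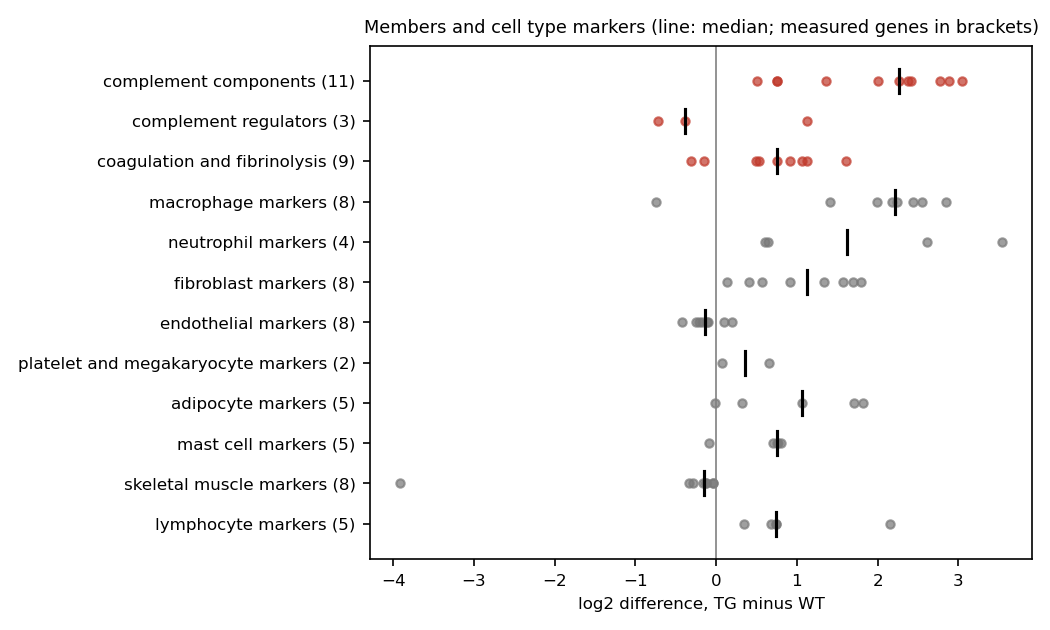
Log2 difference, TG minus WT, of each measured complement and coagulation gene (red) and of each measured cell type marker (grey), with the median of each list as a line. Macrophage markers have a median of 2.21 and complement components one of 2.26, while endothelial and skeletal muscle markers both have medians of -0.14. The components include C6, above background on no WT array. For the 7 components above background on all 6 arrays the median is 2.38.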

How the data were processed

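Muscle RNA was profiled on 6 1-colour arrays. Per the labels' protocols, 300 ng of total RNA was amplified with an oligo-dT primer, and per the submitters' processing notes GenomeStudio was used. The authors deposited for each probe and array an unnormalized intensity with its detection p-value (array medians 73.3 to 78.8), and a value table of intensity that is background-subtracted and quantile-normalized, as its values show (common maximum 30836.5, minimum -22.6). Here limma 3.58.1 in R 4.3.3 corrected background by normexp from the detection p-values with an offset of 16, then applied quantile normalization and log2. Of 45281 probes, 17166 had detection p under 0.05 on at least 3 arrays, 14803 of them with 1 symbol in the platform annotation, and the brightest probe stood for its gene. Dim differences are compressed by the offset, and 3 arrays per group limit the precision.

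Groups were taken from the sample titles and compared with lmFit and eBayes, two-sided, with Benjamini-Hochberg adjustment over 9978 genes. Where no array of a group was above background, a fold is a bound against the lowest detected signal. A single simulated dataset for TG against WT over 9978 genes gave 34 of 67 calls at 1.5-fold, 65 of 67 at 2-fold, 66 of 66 at 4-fold and 15 of 9778 among unchanged genes. It held 200 changed genes, while 5613 were called in the data. The adjustment depends on that share, so these rates need not hold for the calls above. Members and lists were chosen with earlier results of these data known. All measured members, Ppargc1b, the 10 other pathway genes with the largest called differences and the brightest marker of each list are named; Alb, Cd163, Myh4, Cd2, Cd3g and the neighbouring genes were added after their values were seen. C1s was matched to C1s1 through its RefSeq synonym.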

Additional observations from a re-analysis of the deposited data

How the results depend on the processing

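Under 17 alternatives (scaling, background, filter, probe summary, variance model, array weights, the authors' value table, replicate block and each array left out), the members that rose numbered 13 to 19 and those that fell 1, and all 13 members above background on all 6 arrays that rose did so under each alternative. The 13 came with only probes above background on all arrays, where 17 members were tested. Leaving out single arrays gave 17 to 19 members higher, 1 lower and 4958 to 5339 genes called, against 5613. Ppargc1b ranged from -1.50 to -1.12. Of 385 values of single members under an alternative, 373 kept direction and side of the threshold. With arrays brought to a common median of all probes, Thbd reversed to 0.011 and Plau to 0.14, neither past the threshold; the median of all genes there was 0.19, against -0.034, and 37.8% of genes rose and 16.1% fell. C7 passed under 8 of 16 alternatives, and F8 did not pass under 2 of 16. Members near background moved in size: C6 ranged from 0.36 to 3.22, F8 from 0.26 to 2.15 and Plaur from 0.24 to 1.46, the highest each time in the authors' value table. That table holds negative values, so those under 1.1 were set to 1.1 here before log2, a step not taken in the table itself. C4b was 1.36 with its probes averaged. How much the floor of 1.1 adds to the shifts of dim members was not tested. Samples with the same replicate number did not deviate together (correlations of -0.0514, 0.031 and -0.0022 across genes), and with the replicate block 19 members rose, 1 fell and C7 passed (adjusted p = 0.0474). Signal over background limits what can be said of the 11 members with a probe but no test.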
